A study of Mus musculus with 3 samples.

Results

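Matricellular and provisional wound matrix genes were followed by their symbols in the platform annotation, using probe sets that carry 1 gene symbol. Of the 9 genes listed, 8 had such a probe set, and each of the 8 had exactly 1. They were Fn1, Vcan, Sparc, Postn, Tnc, Thbs1, Thbs2 and Thbs4. Spp1, the osteopontin gene, was not analysed here. The 8 genes stand among 19938 genes measured in the series, and all 8 were among the 9969 compared genes, which reached the level filter of 8.36 log2 units on at least 1 array. The genes were listed by symbol with no rule on measured values, but earlier results of these data were known when they were chosen.

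The tissue came from back wounds of C57Bl/6 mice aged 6 weeks. C57Bl/6 is an inbred strain, and no other genotype or treatment is given. Each wound was a 1.5 cm2 excision through epidermis and dermis, and regrown dermis with any epidermis over it was collected on day 10, day 12 or day 14, without the unwounded skin around it. For each day, tissue of 3 mice was pooled and run on 1 array, so every difference below sets 1 pool against another and has no replicate check, and no test across samples was possible. In such bulk tissue, fewer cells of a type and less RNA per cell cannot be told apart.

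After a wound closes over a clot, fibroblasts and macrophages replace the fibrin with a provisional matrix rich in fibronectin, hyaluronan and versican, on which cells migrate. Matricellular proteins, among them the thrombospondins, tenascin C, periostin, SPARC and osteopontin, are secreted into this matrix and act mainly by binding growth factors, proteases, collagen and cell surface receptors. Several of them are scarce in resting adult skin and abundant in granulation tissue, the new connective tissue of a wound.

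Arrays had medians of 7.53, 7.55 and 7.53 log2 units over 35556 probe sets on days 10, 12 and 14. The tissue label was borne out by its markers: all 10 keratinocyte markers and all 10 fibroblast markers measured were above the level filter, whereas 8 of 10 skeletal muscle markers were below it. Eif2s3y, a gene on the Y chromosome, stood at 5.49, 9.59 and 8.38 log2 units on days 10, 12 and 14, and Uty, another such gene, was higher than on day 10 by 3.51 on day 12 and by 2.35 on day 14. The sex of the mice is not stated in the labels, and a difference in sex between the pools cannot be told apart from the days. The split of day 10 from the later days is the one seen for Thbs4. Eif2s3y and Uty also differed by −1.21 and −1.16 on day 14 over day 12, the step at which Tnc and Thbs1 differed most. Of all probe sets, 23.1% held the same value on all 3 arrays, so that a difference of 0.00 is no precise measurement. Where a gene had a pair of probe sets (472 genes above the filter), the deviation of 1 probe set's difference from the pair's mean had a 95th percentile of 0.19 for day 12 over day 10, 0.13 for day 14 over day 12 and 0.21 for day 14 over day 10. This spread is between probe sets on the same arrays. It leaves out the spread between animals and any array error that both probe sets share.

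The sequences before the start sites of Tnc and Thbs4, genes that were lower and higher on day 14 than on day 10, are shown first, with that of Thbs2, a thrombospondin gene with nearly equal values. The promoter table is from RefSeq on GRCm38.p6, and the 250 bases before the start site are printed on the gene's own strand. For Tnc, which has 2 start sites there, the more upstream one was taken. Capitals mark matches, on either strand, to TATAAA for the TATA box, TGANTCA for AP-1, CATTCC for Tead, CAGACA for Smad and the CArG box bound by serum response factor.
Thbs4 (chr13:92794819-92795068, minus strand): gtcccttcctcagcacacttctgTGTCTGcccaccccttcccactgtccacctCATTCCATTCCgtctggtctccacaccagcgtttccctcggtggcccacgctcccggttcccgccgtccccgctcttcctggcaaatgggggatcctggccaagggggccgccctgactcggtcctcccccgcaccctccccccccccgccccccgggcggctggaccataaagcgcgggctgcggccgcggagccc
Tnc (chr4:64047016-64047265, minus strand): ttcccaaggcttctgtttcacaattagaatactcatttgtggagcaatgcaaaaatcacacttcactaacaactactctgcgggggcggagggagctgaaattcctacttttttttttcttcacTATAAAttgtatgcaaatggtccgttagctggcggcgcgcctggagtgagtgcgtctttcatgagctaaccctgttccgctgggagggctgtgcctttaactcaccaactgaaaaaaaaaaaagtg
Thbs2 (chr17:14694263-14694512, minus strand): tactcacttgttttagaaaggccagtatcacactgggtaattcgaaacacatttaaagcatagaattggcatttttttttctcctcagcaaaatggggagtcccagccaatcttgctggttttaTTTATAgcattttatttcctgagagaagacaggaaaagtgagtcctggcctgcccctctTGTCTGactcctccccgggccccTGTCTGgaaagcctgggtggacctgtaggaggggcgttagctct
The Thbs4 window held a pair of overlapping CATTCC matches that start at −197 and −192 and a CAGACA match on the opposite strand from −227. The Tnc window held TATAAA from −126. The window of the other Tnc start site, not printed, overlaps it and held the same TATAAA, there from −205, and CAGACA on the opposite strand from −71. The Thbs2 window held TATAAA on the opposite strand from −126 and CAGACA on the opposite strand from −67 and from −44. Of 32851 such windows, 12.4% held TATAAA, 12.6% CATTCC, 17.1% CAGACA, 6.75% TGANTCA and 1.47% a CArG box. These matches describe letters in the windows and nothing more.

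Fn1, Vcan, Sparc, Postn and Thbs2 stayed within 0.1 log2 units over the 3 days, whereas Tnc and Thbs1 were lower on day 14 and Thbs4 was higher from day 12 on. The share of all compared genes that stayed within 0.1 log2 units over the 3 days was 38%, beside these 5 of 8, and it was 39.8% among the 467 genes with a mean of at least 12 log2 units. On day 12 over day 10, 1 of 8 genes was higher by 1.5-fold or more and 0 were lower by 1.5-fold or more, where 4.17% and 1.64% of all compared genes passed the same sizes. On day 14 over day 12, 0 were higher and 1 was lower by that size, beside 0.321% and 1.19% of all compared genes. On day 14 over day 10, 1 was higher and 0 were lower, beside 5.27% and 5.19%. The median difference of the 8 genes was 0.02 on day 12 over day 10, −0.06 on day 14 over day 12 and −0.05 on day 14 over day 10, and the medians over all compared genes were 0.00, −0.001 and −0.02. The plots of values by day and of differences beside those of all genes show the same split.

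**Figure D1:**
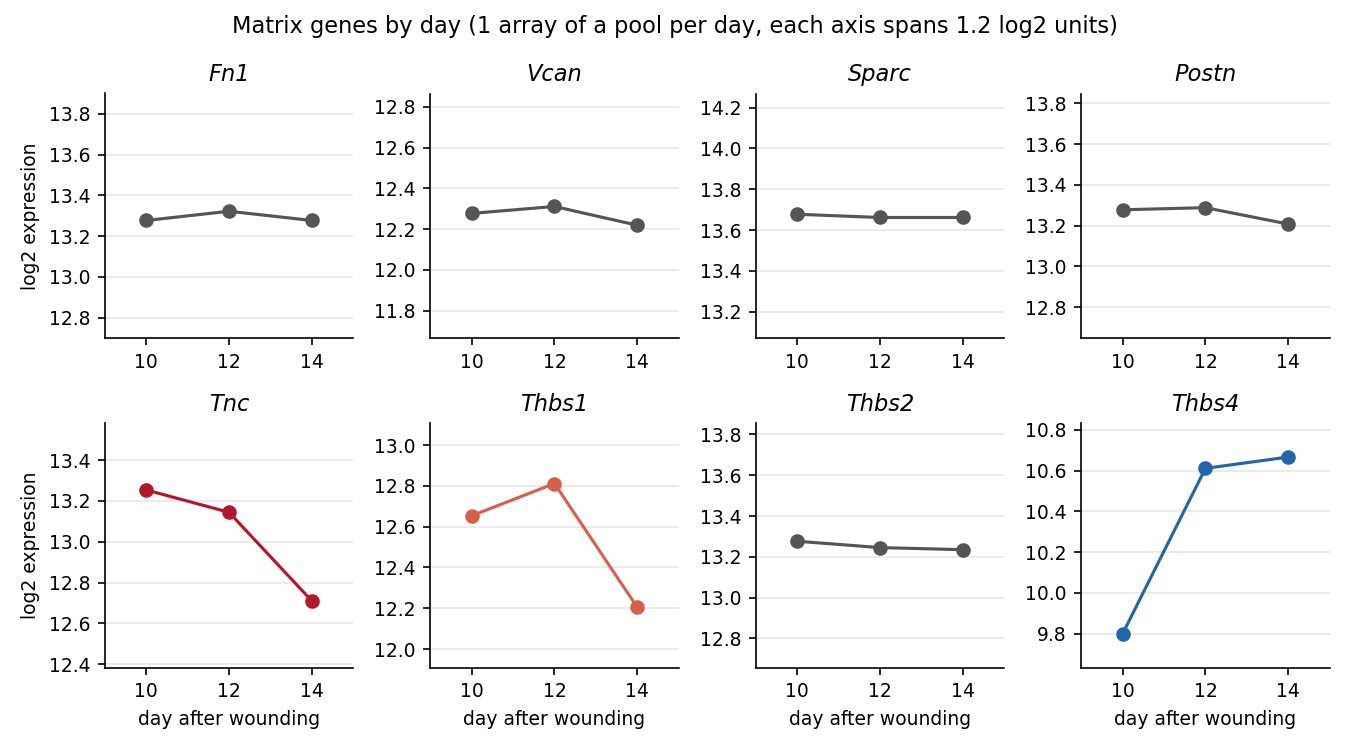
Log2 expression (y axis) of 8 matricellular and provisional matrix genes on days 10, 12 and 14 after wounding (x axis), 1 point per day and array, with each axis spanning 1.2 log2 units. Thbs4 stands higher on days 12 and 14, Tnc and Thbs1 stand lower on day 14, and the lines of the other 5 genes are nearly flat.

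Fn1 encodes fibronectin, the adhesive glycoprotein of the provisional matrix that integrins bind and assemble into fibrils. Its values were 13.28, 13.32 and 13.28 log2 units on days 10, 12 and 14, and the values of days 10 and 14 were identical. Day 12 stood above both by 0.05, which is inside the spread between probe sets. Vcan encodes versican, a chondroitin sulphate proteoglycan that binds hyaluronan. It stood at 12.28, 12.31 and 12.22 log2 units on days 10, 12 and 14, highest on day 12 and lowest on day 14, with a difference of −0.06 between day 14 and day 10.

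Sparc encodes a collagen-binding protein, also called osteonectin, that takes part in collagen fibril assembly. Its values were 13.68, 13.66 and 13.66 log2 units on days 10, 12 and 14, with days 12 and 14 identical. Postn encodes periostin, a fibroblast product that binds collagen and integrins. It stood at 13.28, 13.29 and 13.21 log2 units on days 10, 12 and 14. The 3 values of each of these genes lay closer together than the 95th percentiles of the spread between probe sets. The sign of such small differences depended on how arrays were scaled, since on day 12 over day 10 Postn ran from −0.02 to 0.01 over the alternatives tried, and on day 14 over day 10 Sparc ran from −0.04 to 0.00 and Fn1 from −0.01 to 0.02.

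Tnc encodes tenascin C, a hexameric glycoprotein of granulation tissue that weakens the adhesion of cells to fibronectin. Its values were 13.25, 13.14 and 12.71 log2 units on days 10, 12 and 14. The value was lower at each step, and that of day 14 stood apart from the other days. Day 14 was 1.46-fold below day 10, a difference of −0.54, and most of it lay between days 12 and 14 with −0.43. The difference of −0.11 between day 12 and day 10 was inside the spread between probe sets. Of the 9969 compared genes, 6.16% were lower by at least as much as Tnc on day 14 over day 10. Among the 186 genes whose mean lay within 0.5 log2 units of that of Tnc, 0.538% were, which is 1 gene, Tnc itself. This depends on the edge of the band. Acta2, a contractile myofibroblast marker, and Tnn, a tenascin gene, had means a little below it. They differed by more on day 14 over day 10, by −0.87 and −0.96.

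Thbs1 encodes thrombospondin 1, a platelet granule and matrix protein that activates latent Tgf-beta and inhibits angiogenesis. Its values were 12.65, 12.81 and 12.20 log2 units on days 10, 12 and 14. Day 12 was the highest and day 14 the lowest, and day 14 was 1.52-fold below day 12, a difference of −0.61. With arrays centred on their medians this difference was below 1.5-fold, as under quantile normalization and cyclic loess, and −0.58 was the smallest size found. Lower by as much on day 14 over day 12 were 1.09% of all compared genes, and 0.809% of 371 genes within 0.5 log2 units of its mean. Day 14 over day 10 gave −0.45, and the 0.16 of day 12 over day 10 was inside the spread between probe sets.

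Thbs2 encodes thrombospondin 2, a close relative of thrombospondin 1 that also inhibits angiogenesis and takes part in collagen fibril assembly. It stood at 13.28, 13.25 and 13.24 log2 units on days 10, 12 and 14. The lowest and the highest of these differed by 0.04. Thbs4 encodes thrombospondin 4, which belongs to the other branch of the family and is known from tendon, muscle and heart. Its values were 9.80, 10.61 and 10.67 log2 units on days 10, 12 and 14. Day 10 was low and days 12 and 14 were high and near each other. Thbs4 was 1.76-fold higher on day 12 than on day 10, a difference of 0.81, and 1.82-fold higher on day 14 than on day 10, a difference of 0.87. Of all compared genes, 2.28% were higher by at least as much on day 12 over day 10 and 2.89% on day 14 over day 10. The 0.06 between days 12 and 14 was inside the spread between probe sets. At 2-fold, 0 of 8 genes passed in either direction. Of all compared genes, 1.48% were higher and 0.181% lower by that size on day 12 over day 10, 0.0301% and 0.361% on day 14 over day 12, and 2.24% and 0.913% on day 14 over day 10. At 1.3-fold, Thbs4 was higher and 0 genes were lower on day 12 over day 10, beside 7.41% and 6.07% of all compared genes. On day 14 over day 12, 0 were higher and Tnc and Thbs1 were lower at that size, beside 1.37% and 3.07%. On day 14 over day 10, Thbs4 was higher and Tnc and Thbs1 were lower, beside 8.6% and 12.5%.

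**Figure D2:**
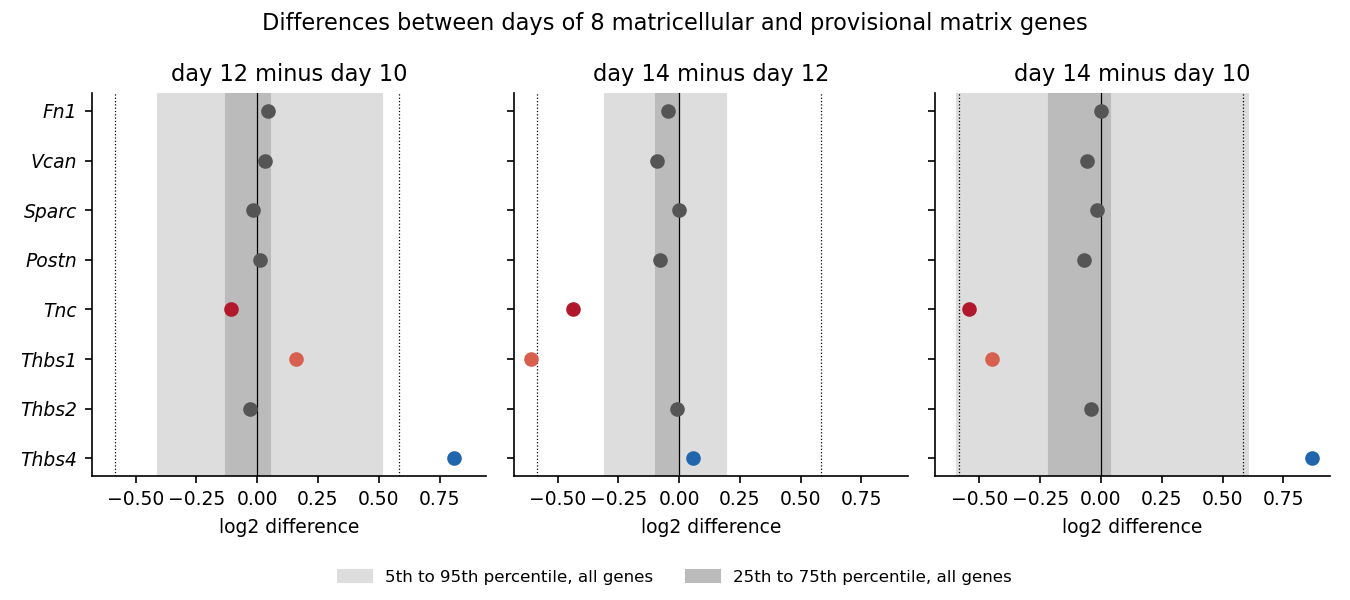
Log2 differences (x axis) of 8 genes (rows) for day 12 minus day 10, day 14 minus day 12 and day 14 minus day 10, over the bands that hold the middle 50% and 90% of the 9969 compared genes. Dotted lines mark 1.5-fold, and Thbs4 lies beyond it on day 12 and day 14 over day 10, while Thbs1 lies just beyond it on day 14 over day 12.

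Tnc and Thbs2 were lower at each of the successive steps and Thbs4 was higher at each, so that 2 of 8 genes had a falling order and 1 of 8 a rising one. Over all compared genes, 30.6% had a falling and 14.7% a rising order. The steps of Thbs2 were as small as −0.03 and −0.01, and the second ran from −0.01 to 0.01 over the alternatives. Postn also had a falling order with arrays centred and under quantile normalization. Fn1, Vcan, Postn and Thbs1 had their highest value on day 12. Means over the 3 arrays were at least 12 log2 units for 7 of 8 genes, the exception being Thbs4, and the highest value on the arrays was 14.1. Among the 467 genes with such a mean, 2.78% were higher by 1.5-fold or more and 0.214% lower by 1.5-fold or more on day 12 over day 10, 0% and 0.642% on day 14 over day 12, and 3.64% and 1.5% on day 14 over day 10. Each of these shares was smaller than the one over all compared genes, and whether signals near the top of the scale were compressed was not tested.

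Some genes of these protein families outside the 8 genes differed by more. Tnxb, the gene of tenascin X, which organises collagen in mature dermis, stood at 7.54, 9.56 and 9.92 log2 units on days 10, 12 and 14, a difference of 2.38 between day 14 and day 10. It passed the level filter only by its values of days 12 and 14. Tnn, the gene of tenascin N (also called tenascin W), ran the other way, at 12.87, 12.30 and 11.91 log2 units, a difference of −0.96. Tnr, a tenascin gene of the nervous system, stayed below the filter with 5.98, 5.98 and 6.02 log2 units. Tenascin genes thus included values on day 14 that were lower than on day 10 for Tnc and Tnn and higher for Tnxb.

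Among the other thrombospondins, Thbs3 stood at 10.27, 10.18 and 10.18 log2 units on days 10, 12 and 14, and Comp, the cartilage oligomeric matrix protein gene, was below the level filter on each day, at 6.53, 6.53 and 6.60 log2 units. Thbs3 was lower on day 14 than on day 10 by 0.09. Tgfbi, the relative of periostin that carries the same kind of fasciclin domains, stood at 12.87, 12.80 and 12.71 log2 units, and its difference between day 14 and day 10 was −0.16, and −0.10 under quantile normalization. Of the 7 other genes of the Sparc family, 3 were above the filter, and 0 of these reached 1.5-fold on day 14 over day 10. Of all compared genes, 5.27% were higher and 5.19% lower by that size. Smoc2, a secreted calcium-binding protein gene, had the largest difference of the 3, with 0.33. Spock2 and Spock3, which encode testican proteoglycans, were below the filter, with differences of 0.16 and −1.02.

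The CCN family holds matricellular proteins with a thrombospondin repeat, and 5 of 6 of its genes were above the filter. On day 14 over day 10, 2 were higher by 1.5-fold or more and 1 lower by 1.5-fold or more. The shares of all compared genes were 5.27% and 5.19%. Ccn3 stood at 10.41, 12.04 and 12.06 log2 units on days 10, 12 and 14, a difference of 1.65 on day 14 over day 10. Ccn5, which lacks the domain at the end of the other family members, stood at 8.91, 9.51 and 10.16 log2 units, higher at each step and by 1.24 in all. Ccn4 stood at 11.04, 10.48 and 10.26 log2 units, lower at each step, with a difference of −0.78 in all. Ccn1, an immediate early gene for an integrin ligand, had 11.67, 11.93 and 11.37 log2 units, so that day 12 was highest and day 14 lowest, the same order as for Thbs1. Ccn2, the connective tissue growth factor gene and a target of Tgf-beta, had 11.28, 11.26 and 11.28 log2 units.

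Genes of partners in the provisional matrix were fewer above the filter. Fga, Fgb and Fgg, the fibrinogen chains made in liver, and Vtn, the vitronectin gene, were 0 of 4 above it, and their differences on day 14 over day 10 were 0.05, 0.00, 0.00 and −0.28. Ibsp, Dmp1, Dspp and Mepe, relatives of osteopontin in bone and tooth, were likewise 0 of 4 above the filter, with differences of 0.10, 0.00, 0.00 and 0.00. The enzyme genes Tgm2 and F13a1, whose products crosslink fibronectin and fibrin, differed by −0.44 and −0.64 on day 14 over day 12 and by −0.44 and −0.16 on day 14 over day 10.

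Of 11 genes for hyaluronan synthases, link proteins and lecticans, the partners of versican, 3 were above the filter. Has2, the main hyaluronan synthase gene of fibroblasts, stood at 10.17, 9.61 and 9.42 log2 units on days 10, 12 and 14, a difference of −0.76 on day 14 over day 10 that was 1.69-fold in size. Has1, below the filter, had 7.28, 7.58 and 7.82 log2 units. Hapln4, a link protein gene, differed by −0.57 and passed the filter by its day 10 value alone. Among the proteases that cleave versican, 5 of 6 were above the filter. On day 14 over day 10, 2 of these were higher and 1 was lower by 1.5-fold or more, beside 5.27% and 5.19% of all compared genes. Adamts5 had 9.54, 10.42 and 10.59 log2 units and Adamts15 had 8.53, 9.05 and 9.22, both higher at each step. Adamts4 had 10.56, 10.18 and 9.51 log2 units and was lower at each step, with a difference of −1.06 in all.

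Receptors for these matrix proteins mostly differed by less than 1.5-fold. Of 10 integrin subunit genes, 9 were above the filter. On day 14 over day 10, 1 was higher and 0 were lower by 1.5-fold or more, beside 5.27% and 5.19% of all compared genes. The higher gene was Itgb8, whose product in an integrin with the alpha v subunit activates latent Tgf-beta. It stood at 8.66, 9.84 and 10.04 log2 units on days 10, 12 and 14. Itgav, which encodes that alpha v subunit, had 11.72, 11.73 and 11.61 log2 units. Itga9, a subunit for tenascin C and osteopontin, differed by −0.56 and Itga4, a subunit for fibronectin, by 0.48 on day 14 over day 10. Of 9 other receptor genes, all above the filter, 0 reached 1.5-fold on day 14 over day 10 in either direction, beside the same 5.27% and 5.19%. Itgb2 alone did on day 12 over day 10, with 1.52-fold higher, where 4.17% of all compared genes were higher by that size. Cd44, the hyaluronan and osteopontin receptor gene, had 11.93, 12.18 and 12.12 log2 units. Itgb2, a leukocyte integrin gene, Sdc4, a syndecan gene, and Cacna2d1, a thrombospondin receptor of neurons, differed by 0.38, 0.22 and −0.35 on day 14 over day 10.

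In the plasminogen activation list, 4 of 5 genes were measured. All 4 were lower on day 14 than on day 10, as were 53.8% of all compared genes. Of the 4, 1 was lower by at least 1.5-fold, beside 5.19% of all compared genes. This was Plat, the tissue plasminogen activator gene, at 11.64, 11.21 and 10.91 log2 units on days 10, 12 and 14. Serpinb2, Plaur and Plau differed by −0.58, −0.31 and −0.25. Of 14 genes of Tgf-beta ligands, latency and receptors, 9 were lower on day 14 than on day 10. Of the others, 3 were higher and 2 were equal, and the median of the 14 was −0.14. Of all compared genes, 53.8% were lower, and their median was −0.02. In the list, 1 gene was lower by at least 1.5-fold, beside 5.19% of all compared genes. It was Tgfb2 with 10.94, 10.41 and 9.93 log2 units, lower at each step, with a difference of −1.01 in all. Tgfb1 had 11.24, 11.01 and 10.86 log2 units, a difference of −0.37, and Ltbp2 differed by −0.50. Under quantile normalization 8 of the 14 were lower, with a median of −0.09.

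**Figure D3:**
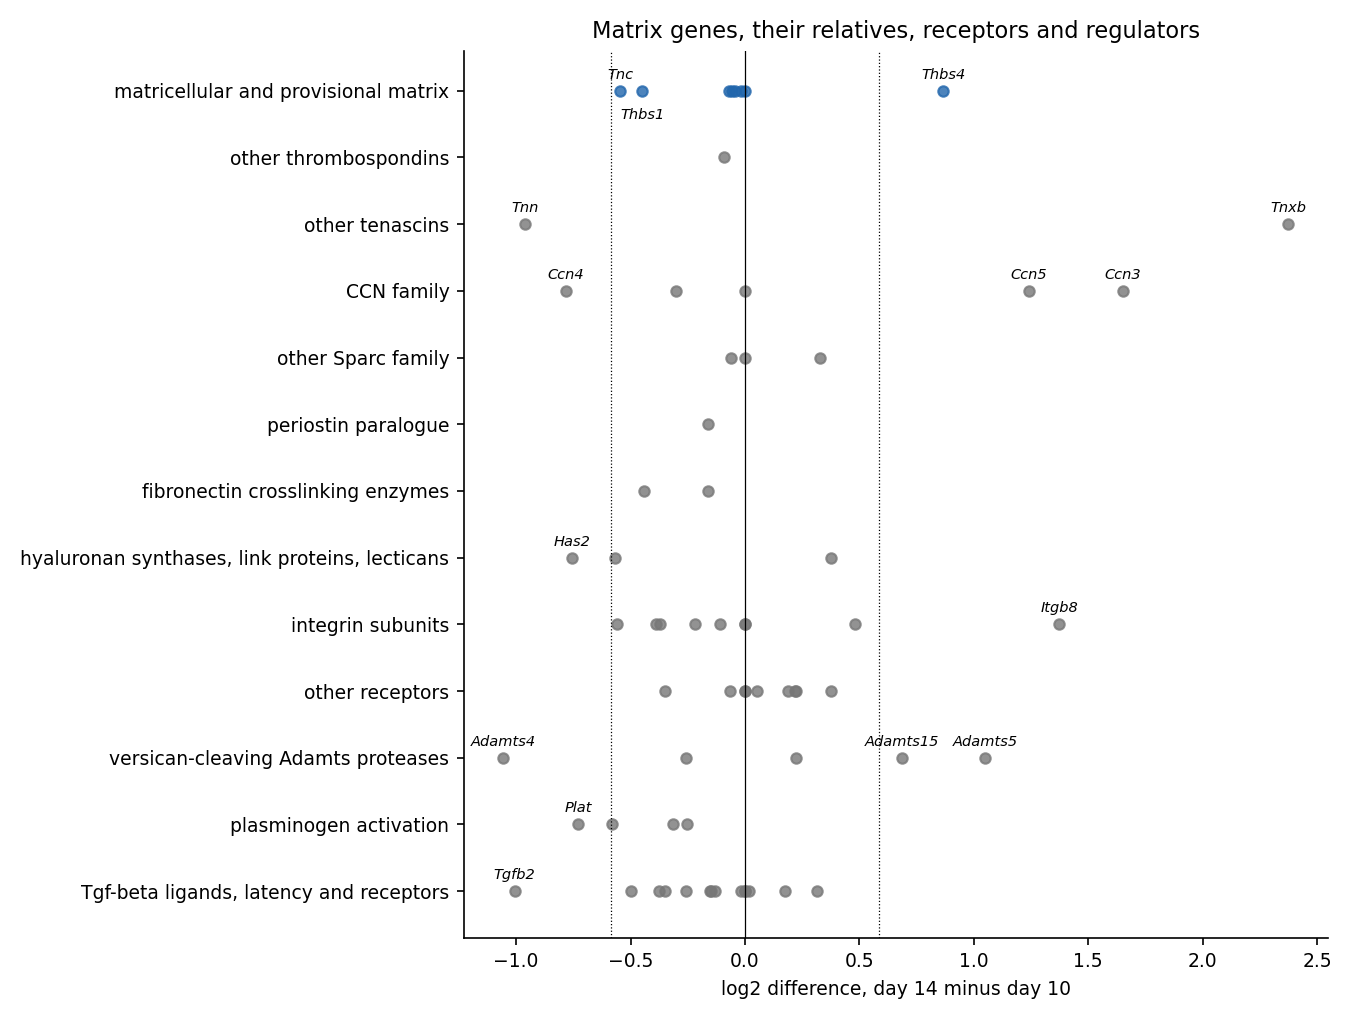
Log2 difference on day 14 minus day 10 (x axis) of each gene above the level filter, by list (rows), with dotted lines at 1.5-fold and names for genes beyond them and for Tnc, Thbs1 and Thbs4. The 8 matricellular and provisional matrix genes in the top row lie between −0.54 and 0.87, and Tnxb, Ccn3, Itgb8 and Ccn5 lie farther to the right at 2.38, 1.65, 1.37 and 1.24.

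Markers of the cells that can make these proteins differed between the same pools. Of 8 contractile myofibroblast markers, 8 were lower on day 14 than on day 10, 7 of them by at least 1.5-fold. Of all compared genes, 53.8% were lower and 5.19% were lower by at least 1.5-fold. Among these markers, Cnn1, at 10.04, 8.15 and 7.49 log2 units, passed the filter by its day 10 value alone. The summed level of these markers, with log2 values turned back to a linear scale for the sum, stood at 15.00, 14.44 and 14.16 log2 units on days 10, 12 and 14. Tnc was lower at the same steps, but most of its difference lay on day 14 over day 12 and that of the summed markers on day 12 over day 10, with −0.57 beside −0.28 on day 14 over day 12. The part of these cells in the Tnc difference was not tested. The 10 fibroblast markers had summed levels of 16.04, 16.01 and 15.98 log2 units, and 0 of them reached 1.5-fold in any pair of days. Few of all compared genes did: 4.17% were higher and 1.64% lower on day 12 over day 10. The shares were 0.321% and 1.19% on day 14 over day 12, and 5.27% and 5.19% on day 14 over day 10.

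Thbs1 differed in the same order as the summed markers of platelets and of macrophages, with day 12 highest and day 14 lowest. Of 10 platelet and megakaryocyte markers, 6 were measured and 2 were above the filter, the chemokine genes Pf4 and Ppbp. Their differences on day 14 over day 12 were −0.98 and −2.18, and the sum rests on this pair. Itga2b, Gp5, Gp9 and Treml1 were below the filter, with differences of 0.32, 0.03, 0.00 and 0.27, so that none of these was lower on day 14 than on day 12. The summed level of the 6 was 12.51, 12.99 and 11.89 log2 units on days 10, 12 and 14. Of 12 macrophage markers, 11 were above the filter and all 11 were lower on day 14 than on day 12, 1 of them by at least 1.5-fold. Of all compared genes, 50.3% were lower on day 14 than on day 12, and 1.19% by at least 1.5-fold. The whole order of Thbs1 was shared by 5 of the 11, and also by 2 of 5 neutrophil and 1 of 3 adipocyte markers above the filter. The share of all compared genes with this order was not counted. Of the 11 macrophage markers, 4 were higher and 6 lower on day 14 than on day 10, where 53.8% of all compared genes were lower. Their summed level with Cd163, which was below the filter, was 14.64, 14.78 and 14.54 log2 units. The part of platelets and macrophages in the Thbs1 difference was not tested.

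Thbs4 is known from tendon and muscle. The summed level of 9 measured markers of cartilage, bone and tendon was 12.22, 11.91 and 11.92 log2 units on days 10, 12 and 14. Of these, 4 were above the filter, and 0 of the 4 were higher by 1.5-fold or more in any pair of days. Of all compared genes, 4.17% were higher by that size on day 12 over day 10, 0.321% on day 14 over day 12 and 5.27% on day 14 over day 10. The tendon genes Tnmd, Mkx and Scx, the last below the filter, differed by −0.33, −0.39 and −0.07 on day 12 over day 10. On day 14 over day 12 they differed by 0.12, −0.16 and 0.00. The skeletal muscle markers had a summed level of 11.25, 10.89 and 10.86 log2 units, with 2 of 10, Acta1 and Des, above the filter. On day 12 over day 10 these differed by −0.71 and −0.70, and Acta1 passed the filter by its day 10 value alone. Of the markers below it, Myh1, Ckm, Mb, Mylpf and Tnnt3 were equal on days 10 and 12. Myh4 and Actn3 were lower on day 12 and Myod1 was higher. The part of cartilage, bone, tendon and muscle cells in the Thbs4 difference was not tested. Summed endothelial markers were 14.39, 14.06 and 13.95 log2 units. On day 14 over day 10, 10 of 10 were lower, beside 53.8% of all compared genes. Of these, 4 were lower by at least 1.5-fold (2 under quantile normalization or cyclic loess), beside 5.19% of all compared genes. Summed keratinocyte markers were 16.16, 16.26 and 16.26 log2 units. Summed levels of neutrophil markers (12.57, 12.50 and 12.37 log2 units, 5 of 10 above the filter), pericyte markers (12.79, 12.78 and 12.74, 5 of 6) and Schwann cell and nerve markers (12.20, 12.14 and 12.00, 4 of 6 measured markers above the filter) differed less between day 14 and day 10 than those of contractile myofibroblasts. The Schwann cell and nerve sum follows Ncam1, which differed by −0.75, whereas 3 of the 4 such markers above the filter were higher on day 14 than on day 10, and the median of the 4 was 0.43. Adipocyte markers, 3 of 8 above the filter, had summed levels of 12.51, 12.88 and 12.80 log2 units, highest on day 12.

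**Figure D4:**
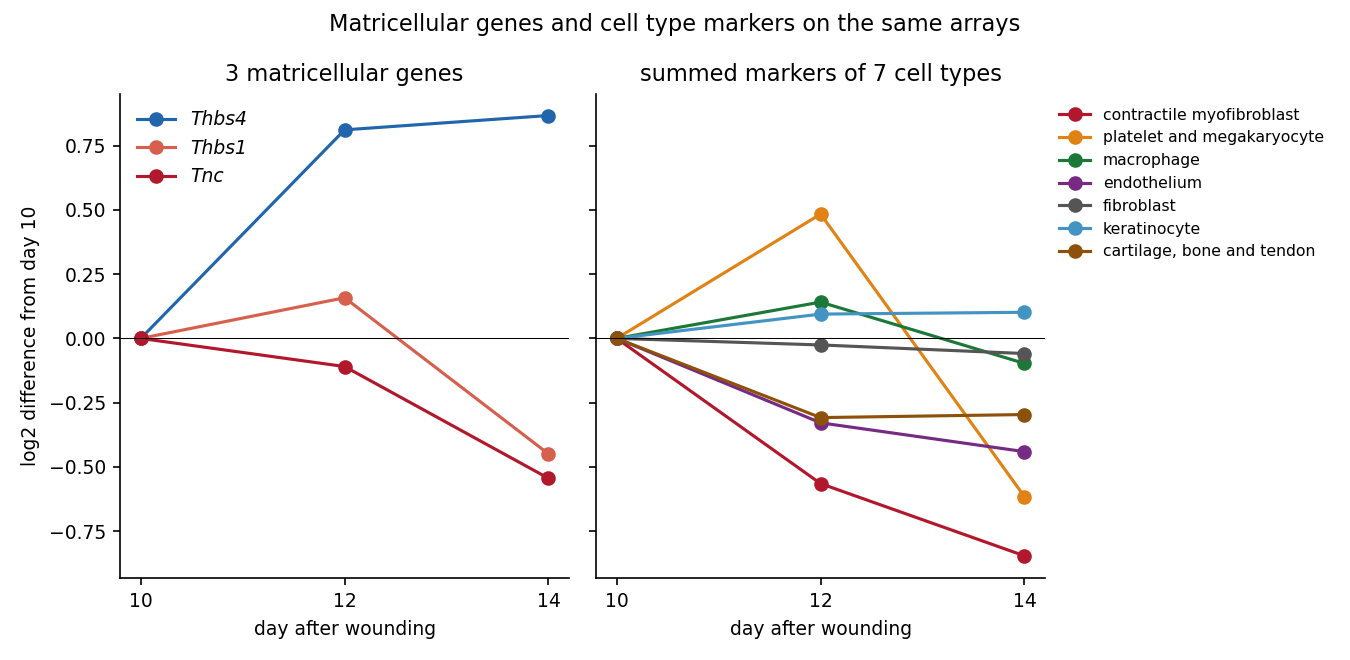
Log2 difference from day 10 (y axis) on days 10, 12 and 14 (x axis) for Thbs4, Thbs1 and Tnc on the left and for the summed markers of 7 cell types on the right. The contractile myofibroblast markers end 0.85 below day 10, and the platelet and megakaryocyte markers stand above day 10 on day 12 and below it on day 14, as Thbs1 does with smaller differences. The platelet and megakaryocyte line rests on Pf4 and Ppbp, the 2 of 6 measured markers above the level filter.

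For each gene that spanned at least 0.3 log2 units over the days, the 3 genes of most similar profile were found by the Euclidean distance between log2 profiles centred on their means, over 3 arrays and 9689 compared genes, after predicted genes, smell and taste receptors, small RNAs and antigen receptor segments were left out. With 3 points per profile many genes lie near any gene, and nothing about shared control follows. Nearest to Tnc were Samd12, Cr1l, a complement regulator gene, and Smtnl2, at distances of 0.01, 0.02 and 0.02. Nearest to Thbs1 were Mgat4a, which encodes a glycosyltransferase, Bnip3, a mitophagy gene induced in hypoxia, and Zfp991, a zinc finger gene, at 0.02, 0.02 and 0.04. Nearest to Thbs4 were Ereg, the gene of the epidermal growth factor family ligand epiregulin, Lce1e, a late cornified envelope gene, and Gas7, at 0.01, 0.02 and 0.02. Ereg had 9.54, 10.34 and 10.42 log2 units on days 10, 12 and 14.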

How the data were processed

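The authors deposited 1 log2 value of expression for each probe set on each array. The labels name RMA and Partek 6.6 as processing tools, and their roles are not given. The log2 scale was taken from the values, which run from 4.37 to 14.1. No scanner output was used, so detection is unknown, and the number of arrays limits the precision. Symbols came from the platform annotation, with 1 symbol for 21789 probe sets and several, left out, for 1621. Probe sets of a gene were averaged (Python 3.11.15, pandas 2.3.3), arrays were not rescaled, and genes were compared whose highest value reached the median of that quantity.

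With 1 array per day there is no test and no p-value. Genes were counted at 1.5-fold beside all compared genes. All genes listed are named, and of each accompanying list those with the largest differences between day 14 and day 10 (3, or every gene of lists of up to 4), with Ccn1, Ccn2, Tgfb1, Itgav and Cd44. Marker genes, Eif2s3y and Uty were named after their values were seen. Genes and lists were chosen with earlier results of these data known. Alternatives were other level filters, array centring, quantile normalization, cyclic loess (limma 3.58.1), other uses of probe sets and other fold sizes. The 1.3-fold size, the genes of mean at least 12 and the genes of similar level were chosen after seeing the data. Levels of different probe sets were not compared. Counting steps were tested on simulated data.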

Additional observations from a re-analysis of the deposited data

How the results depend on the processing

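The 1 gene lower by 1.5-fold or more on day 14 over day 12, Thbs1, became 0 with arrays centred on their medians, under quantile normalization, under cyclic loess and at 2-fold, and 2 at 1.3-fold, a size chosen after seeing the data. At 1.3-fold, 2 genes, in place of 0, were lower on day 14 over day 10. At 2-fold, the 1 gene higher on day 12 and on day 14 over day 10, Thbs4, became 0. The 2 genes lower at both steps, Tnc and Thbs2, became 1 under cyclic loess, which brought the second step of Thbs2 to 0.01, and 3 under quantile normalization, with Postn, or where equal values counted, with Sparc. With arrays centred they were 2, Tnc and Postn. The other counts of the 8 genes were the same under the alternatives tried, and their medians moved by no more than the spread between probe sets. With a mean in the top 25% required, fewer genes were compared, and the genes higher by 1.5-fold or more on day 14 over day 10 became 1 in the CCN family and 1 among the Adamts proteases, in place of 2 each, and 0 among the other tenascins and the integrin subunits, in place of 1 each. The 1 lower hyaluronan gene likewise became 0. Of 168 differences of single genes under alternatives, 166 moved by less than the robust standard deviation between probe sets (0.04, 0.04 and 0.05 for the pairs of days), and none that had reached 1.5-fold turned its sign. The exceptions, both on day 14 over day 12 under quantile normalization, were Tnc at −0.39 and Thbs4 at 0.10. The difference of Zfp991 on day 14 over day 10 was −0.18 with probe sets of several symbols averaged in, beside −0.40. A level filter cannot change a gene's difference, and since each of the 8 genes has 1 probe set, choosing the brightest could not either. Averaging in probe sets of several symbols also left the values of the 8 genes unchanged. Of the 168 differences, only those under array centring, quantile normalization and cyclic loess moved at all. No paired analysis was possible because each day has 1 array. Values at the top of the scale and the missing scanner signals limit what small differences can show.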
